A study of Mus musculus with 6 samples.

Results

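The genes described here encode the mitochondrial carriers of the Slc25a family together with the uncoupling proteins Ucp2 and Ucp3, measured in hearts of male C57BL/6 mice kept from 4 weeks of age on a normal diet (ND, standard chow) or a high fat diet (HFD, 60% of kcal from fat) for 4 months. Members were chosen by name alone, as every array probe other than a control whose gene name was Slc25a followed by a number, with 1 gene of the series left out, or was Ucp2 or Ucp3. This gave 54 probes of 45 genes among 55681 probes on the array. RNA of 3 ND and 3 HFD hearts was hybridised to 6 Agilent mouse arrays read in 1 colour, 1 heart per array. Levels are given as log2 of the background-subtracted spot intensity relative to the 75th percentile of the same array, so that 0 is the brightness of that percentile and a difference of 1 is a doubling. They are comparable between hearts for 1 probe but not between probes. Values of single hearts are always given in the order of the replicate number, 1 to 3.

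Carriers of the Slc25a family are small proteins of the inner mitochondrial membrane that exchange metabolites, nucleotides, cofactors and ions between the matrix and the cytosol. In the heart, which makes most of its ATP in mitochondria and draws largely on fatty acids, they bring in acylcarnitine, phosphate and ADP, hand out ATP, and carry the intermediates of the malate-aspartate shuttle. Uncoupling proteins belong to the same fold. Ucp1 of brown fat lets protons return to the matrix without making ATP, while Ucp2 and Ucp3 occur in many tissues and in muscle, and their genes respond to fatty acids through PPAR nuclear receptors.

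The comparison asked which of these transporters differed between ND- and HFD-fed hearts. Of the 54 probes, 46 (of 38 genes) were well above background on every array and were tested. With limma, two-sided, 7 of the 46 (15.2%) had a p below 0.05 before adjustment, 3 of them higher and 4 lower in HFD. Among all 27587 probes tested on the array this share was 11.9% (5.23% higher and 6.64% lower), so the share among the carriers was near that of the whole array. None of the 46 passed Benjamini-Hochberg adjustment over all probes tested, where the lowest adjusted p was 0.136 in limma and 4 probes of the array (0.0145%) passed. By the methods' t-test, 9 had a p below 0.05 before adjustment, against 11.4% of all probes, and 0 after it. Without HFD 2, a heart with few atrial and fat markers (below), limma gave 11 of 46 before adjustment, 4 higher and 7 lower, against 12.6% of all probes. This was the highest count with 1 heart left out. The other such fits gave 5 to 9, against 7.86% to 11.8% of all probes. The hearts of the 2 diets did not overlap for 12 of the 46 probes (26.1%), 3 higher and 9 lower in HFD, against 19.0% of all probes tested (7.92% higher and 11.1% lower). The median log2 difference of the 46 was -0.02, with 22 probes higher and 24 lower, and that of all probes tested was -0.01.

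The 3 probes with p below 0.05 that were higher in HFD were those of Slc25a42, which brings coenzyme A into the matrix, Slc25a20, the carnitine-acylcarnitine translocase that carries long-chain fatty acids to β-oxidation, and Ucp3. Among the 4 that were lower were those of Slc25a29, a carrier of basic amino acids, Slc25a13 (citrin), an aspartate-glutamate carrier of the malate-aspartate shuttle, and Slc25a37 (mitoferrin 1), an iron carrier. Their sizes ran from a log2 difference of -0.52 to 0.50, that is, no member differed by as much as a doubling.

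The sequences upstream of the 3 higher genes are shown because these genes had a higher mean in HFD and because PPAR target genes are one of the sets described with them. Each is the 250 bases before an annotated start (RefSeq, GRCm38.p6), written 5′ to 3′ on the strand of the gene. Capitals mark GGGCGG (the GC box, read as CCGCCC on the other strand) and AGGTCA (the hexamer that PPAR and related nuclear receptors read), both searched on both strands.
Slc25a42 (chr8:70212282-70212531, minus strand): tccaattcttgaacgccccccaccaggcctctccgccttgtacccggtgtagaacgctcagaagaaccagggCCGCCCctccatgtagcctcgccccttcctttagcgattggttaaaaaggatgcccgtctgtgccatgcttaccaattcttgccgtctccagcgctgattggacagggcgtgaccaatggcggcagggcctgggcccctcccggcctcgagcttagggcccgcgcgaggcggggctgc
Slc25a20 (chr9:108661886-108662135, plus strand): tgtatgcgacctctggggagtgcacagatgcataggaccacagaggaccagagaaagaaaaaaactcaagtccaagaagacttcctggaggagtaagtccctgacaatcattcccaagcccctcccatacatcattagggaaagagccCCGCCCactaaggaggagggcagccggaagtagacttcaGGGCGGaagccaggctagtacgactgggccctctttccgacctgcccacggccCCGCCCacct
Ucp3 (chr7:100472741-100472990, plus strand): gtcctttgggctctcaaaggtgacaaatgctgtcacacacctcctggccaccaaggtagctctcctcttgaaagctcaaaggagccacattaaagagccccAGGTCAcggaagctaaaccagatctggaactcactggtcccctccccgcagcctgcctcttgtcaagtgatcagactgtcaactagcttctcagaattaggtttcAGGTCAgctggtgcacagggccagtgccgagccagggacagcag

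The 3 sequences differed in the letters they held. Slc25a42 had 1 GC box, 178 bases before the start, and Slc25a20 had 3, at 102, 63 and 10 bases. Ucp3 had no GC box and 2 of the hexamers, 149 and 44 bases before the start. The hexamer occurred in 5 of 44 promoters of 35 member genes (11.4%, those of Slc25a34, Slc25a39, Slc25a45, Slc25a47 and Ucp3), in 12.8% of the promoters of all protein-coding genes and in 14.0% of all 32851 promoters. A pair of hexamers 1 base apart, the arrangement that PPAR with its partner RXR binds (AGGTCANAGGTCA), was in 0 of the 44 and in 0.0335% of all promoters, and the looser AGGNCANAGGNCA was in 0 of 44 and 0.338%. The hexamer lies within both of these and within TCAAGGTCA, a site of estrogen-related receptors, which was in 0 of 44 and 0.387%. The GC box was in 30 of the 44 (68.2%), in 42.6% of protein-coding promoters and in 32.7% of all. These matches describe the letters of the windows and not binding.

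On the array each gene was read through a probe of 60 bases, or through 2 such probes. The probe sequences of the carnitine carrier, of the brighter Ucp3 probe and of the dimmer mitoferrin 1 probe are printed to show what hybridised, since the results for Ucp3 and mitoferrin 1 below depend on which probe is read. Their positions are on mm9, and the exon or UTR in which a probe lies was not analysed here.
Slc25a20, A_51_P344008 (chr9:108585399-108585458, plus strand): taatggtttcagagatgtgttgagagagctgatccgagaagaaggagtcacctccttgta
Ucp3, A_66_P108247 (chr7:107630399-107630458, plus strand): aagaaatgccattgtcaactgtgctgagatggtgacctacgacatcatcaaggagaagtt
Slc25a37, A_55_P2032445 (chr14:69902797-69902856, minus strand): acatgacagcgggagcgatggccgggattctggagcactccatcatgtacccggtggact

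Before the values by gene, the state of the arrays matters. The share of probes well above background ran from 49.2% to 52.9% over the arrays, no spot was saturated, and arrays of the same diet correlated at Pearson's r of 0.990 to 0.995 across probes. All 6 arrays were on 1 slide, HFD 1 and HFD 2 on its row 1 and the other 4 on row 2, so row 1 holds HFD hearts alone. The 8 cardiomyocyte markers were well above background on all 6 arrays and 0 of them had a limma p below 0.05, so the tissue carried the markers of its label. The hearts differed within a diet in their atrial and fat content as markers show it: the summed level of 5 atrial markers, as multiples of the 75th percentile, was 198, 379 and 981 for the ND and 1150, 56.2 and 582 for the HFD hearts. White adipocyte markers summed to 3.15, 5.99 and 7.04 in the ND hearts and 7.25, 0.369 and 2.89 in the HFD hearts (Lep was never above background). HFD 2 was thus the lowest heart for both lists, and HFD 1 the highest. In RNA from whole tissue, fewer cells of a type and less RNA per cell cannot be told apart.

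**Figure D1:**
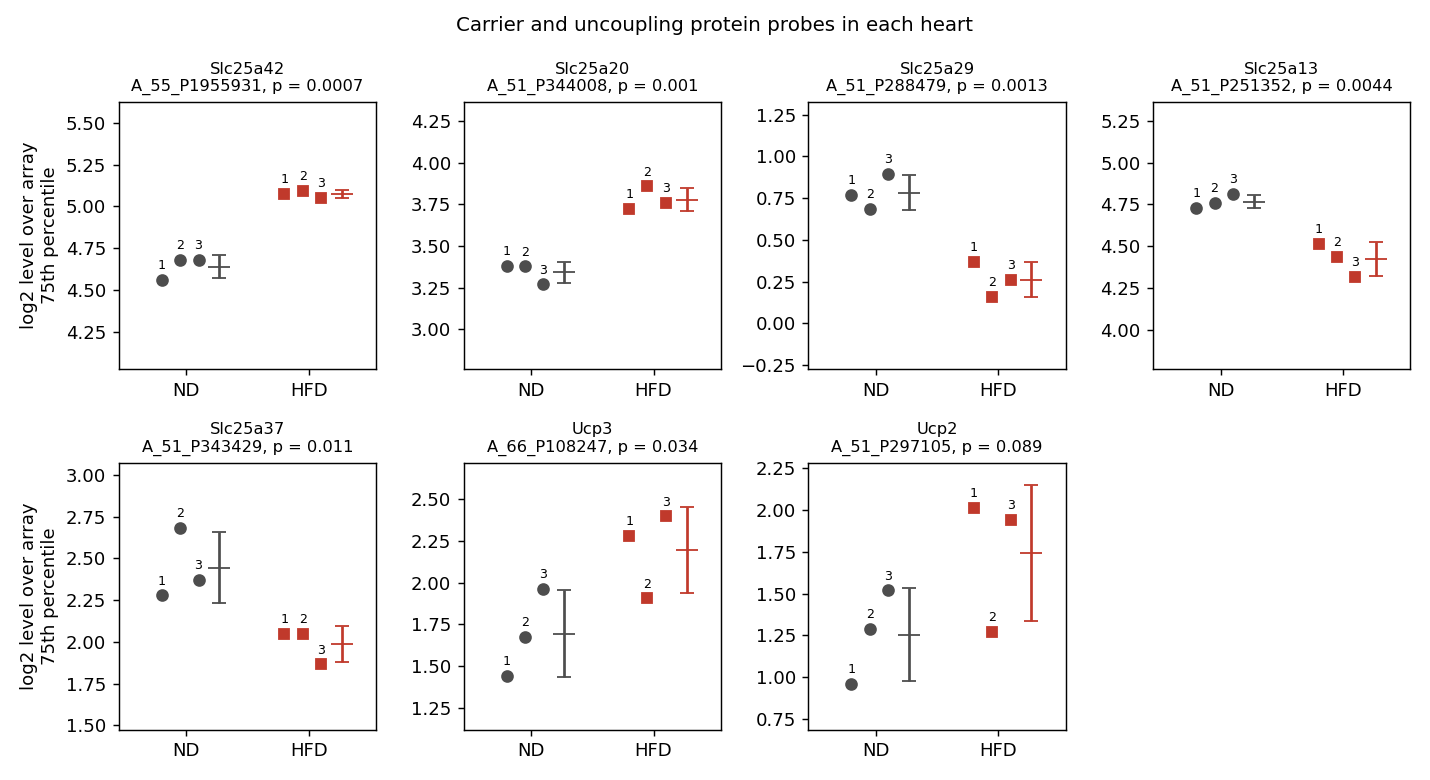
Log2 level (relative to the array's 75th percentile) of 6 of the probes with a limma p below 0.05 before adjustment, and of Ucp2, in each heart: ND as grey circles, HFD as red squares, each labelled with its replicate number, with mean and SD (n = 3) to the right. Each panel spans the same range of 1.6 log2 units around its own centre. The diets separate for Slc25a42, Slc25a20, Slc25a29, Slc25a13 and Slc25a37, and overlap for Ucp3 and Ucp2.

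Slc25a42 showed the lowest p of the family. Its log2 level was 4.56, 4.68 and 4.68 in the ND hearts and 5.08, 5.09 and 5.05 in the HFD hearts, on the probe at chr8:72708298-72708357 (mm9). All HFD hearts lay above all ND hearts, and the HFD hearts lay close together. HFD was higher by 0.43 ± 0.07 (log2, SE; 1.35-fold), from 4.64 ± 0.07 to 5.07 ± 0.02 (SD, n = 3), with a limma p of 0.000698 and an adjusted p of 0.136. An intensity trend with robust variances in limma lowered the adjusted p to 0.0401, the only one of 20 alternative settings in which a member of the family passed.

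For Slc25a20, the level was 3.38, 3.38 and 3.27 in ND and 3.72, 3.86 and 3.76 in HFD, again without overlap. The difference of 0.44 ± 0.07 (log2, SE; 1.35-fold) had a limma p of 0.00105 and an adjusted p of 0.149. The genes that work beside this carrier stood the same way. Of 7 genes of the carnitine shuttle, 6 were higher in HFD. A limma p below 0.05 was found for 4 (57.1%, against 11.9% of all probes tested), all higher. These were Crat, the matrix carnitine acetyltransferase (0.48), Slc22a5, the plasma membrane carnitine transporter (0.36), Cpt1b, the muscle form of the outer membrane carnitine palmitoyltransferase (0.35), and Cpt2, its partner on the inner membrane (0.28). Their adjusted p ran from 0.124 to 0.330 in limma, and the median of the list was 0.28 against -0.01 for all probes tested. The hearts of the diets did not overlap for the same 4 genes (57.1%, against 19.0% of all probes tested). They overlapped for Cpt1a, Crot and Cpt1c. This list was chosen with earlier results of these data known, so it is not independent evidence.

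Other transporters of carboxylates gave smaller differences. Slc25a11, the oxoglutarate-malate carrier, was lower in every HFD heart (7.51, 7.62 and 7.43) than in any ND heart (7.69, 7.64 and 7.63), with ND 3 and HFD 2 all but touching, by 0.13 ± 0.07 (log2, SE), yet its limma p was 0.123. Slc25a1, the citrate carrier, differed by 0.12 with a 95% confidence interval from -0.29 to 0.53. Slc25a10, the dicarboxylate carrier, was -2.55, -2.54 and -2.63 (ND) and -2.16, -3.12 and -2.62 (HFD). The HFD hearts thus lay on both sides of the ND hearts, HFD 1 highest and HFD 2 lowest. HFD 1 and HFD 2 also had the highest and the lowest white adipocyte sum (7.25 and 0.369) and atrial sum (1150 and 56.2). Among the ND hearts, ND 3 had the highest white adipocyte sum (7.04) and the lowest Slc25a10 level (-2.63). The part of fat or atrial tissue in the Slc25a10 level was not tested.

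Of the uncoupling proteins, Ucp3 was read by 2 probes that did not give the same picture. The brighter, printed above, had levels of 1.44, 1.68 and 1.96 in ND and 2.28, 1.90 and 2.40 in HFD. HFD 2 lay just below ND 3, and the others were separate. The mean was 0.50 ± 0.18 higher in HFD (log2, SE; 1.41-fold), with a limma p of 0.0335 and an adjusted p of 0.383. The methods' t-test gave this probe a p of 0.0773, and the average of both probes differed by 0.33 with a limma p of 0.231. The other probe (A_52_P380379, chr7:107634291-107634350, mm9) read 0.35, 0.14 and 1.12 in ND and 0.24, 0.54 and 1.29 in HFD, and differed by 0.16 with a 95% confidence interval from -0.72 to 1.03 (limma p of 0.678). On that probe the third heart of each diet was the highest and the rest overlapped.

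Ucp2 read 0.96, 1.29 and 1.52 in ND and 2.01, 1.27 and 1.94 in HFD. Above all ND hearts stood HFD 1 and HFD 3, while HFD 2 lay below ND 2, so that the difference of 0.49 ± 0.24 (log2, SE) had a limma p of 0.0892. Without HFD 2 the difference was 0.72 (limma p of 0.0102), and with the atrial marker level as a covariate, a setting chosen after seeing the data, it was 0.58 (limma p of 0.00104). Without ND 1, HFD 1 or HFD 3 it was 0.34 to 0.39, and the p was 0.05 or more in 17 of 20 alternatives. HFD 2 was also the lowest heart for white adipocyte markers and for macrophage markers, which sum to 32.9 there against 39.9 to 44.5 in the other hearts. HFD 1, the highest heart for Ucp2, had the highest white adipocyte sum (7.25) and a macrophage sum of 39.9, below all ND hearts (41.3 to 44.5). The single macrophage markers of HFD 1 were mixed. Cd163, Lyz2 and Mrc1 lay below all ND hearts, Cd68 above them, and Csf1r, Ctss, Emr1 and Fcgr1 within their range. HFD 3, the next for Ucp2, had a macrophage sum of 41.4 and a white adipocyte sum of 2.89, the latter below all ND hearts (3.15 to 7.04). Of the white adipocyte markers, Cfd, the brightest, was below all ND hearts in HFD 3, and Plin1 was above them. Adipoq, Cidec and Retn lay within the ND range there. Ucp2 is expressed in macrophages and fat as well as in muscle, and the part of such cells in its level was not tested. The level of the brighter Ucp3 probe relative to Ucp2 within an array differed by 0.01 (log2) between the diets (two-sided exact permutation test, p of 0.9; the smallest p that 3 hearts against 3 allow is 0.1).

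The near relatives Slc25a14, Slc25a27 and Slc25a30 differed by -0.03, -0.02 and 0.04, all with overlapping hearts. Ucp1, the uncoupling protein of brown fat, was not well above background in 5 of the 6 hearts (-6.77 to -7.17) and reached -0.53 in HFD 1. Of the other brown fat markers, Elovl3 was never above background, while Cidea, Cox7a1, Cox8b, Dio2 and Prdm16 were above background in all 6 hearts. Of these 5, 2 were higher and 3 lower in HFD. Cidea was 0.325 higher (log2, limma p of 0.0123, adjusted p of 0.289) and Prdm16 0.326 higher (limma p of 0.118). For Cidea and Prdm16, all HFD hearts lay above all ND hearts. Cox7a1 and Cox8b were among the bright probes of every heart, so the summed list, 1100 in HFD 1 and 1120 to 1310 in the others, could not show a small share of brown fat. The part of brown fat in the Ucp1 signal was not tested. HFD 1 did not have the highest level of either Ucp3 probe, but it had the highest level of Ucp2.

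The ADP/ATP and phosphate carriers that serve oxidative phosphorylation showed little difference. Slc25a4, the heart ADP/ATP carrier, read 9.11, 9.16 and 9.10 in ND and 9.07, 9.21 and 8.95 in HFD. The difference was -0.04 with a 95% confidence interval from -0.25 to 0.17. HFD 2 was the highest and HFD 3 the lowest of all 6 hearts. Slc25a3, the phosphate carrier, differed by -0.04 (-0.30 to 0.22) on its brighter probe and by -0.02 (-0.22 to 0.18) on the other. Slc25a5, a second ADP/ATP carrier, was lower in each HFD heart (5.14, 5.09 and 4.98) than in the ND hearts (5.18, 5.25 and 5.15), by 0.13 ± 0.07 (log2, SE; limma p of 0.142). The calcium-regulated ATP-Mg/phosphate carriers Slc25a23, Slc25a24 and Slc25a25 were each higher in HFD by 0.13 to 0.30 with overlapping hearts, and both Slc25a25 probes were lowest in ND 3 and highest in HFD 2. Of the 8 probes of this group, 0 had a limma p below 0.05.

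**Figure D2:**
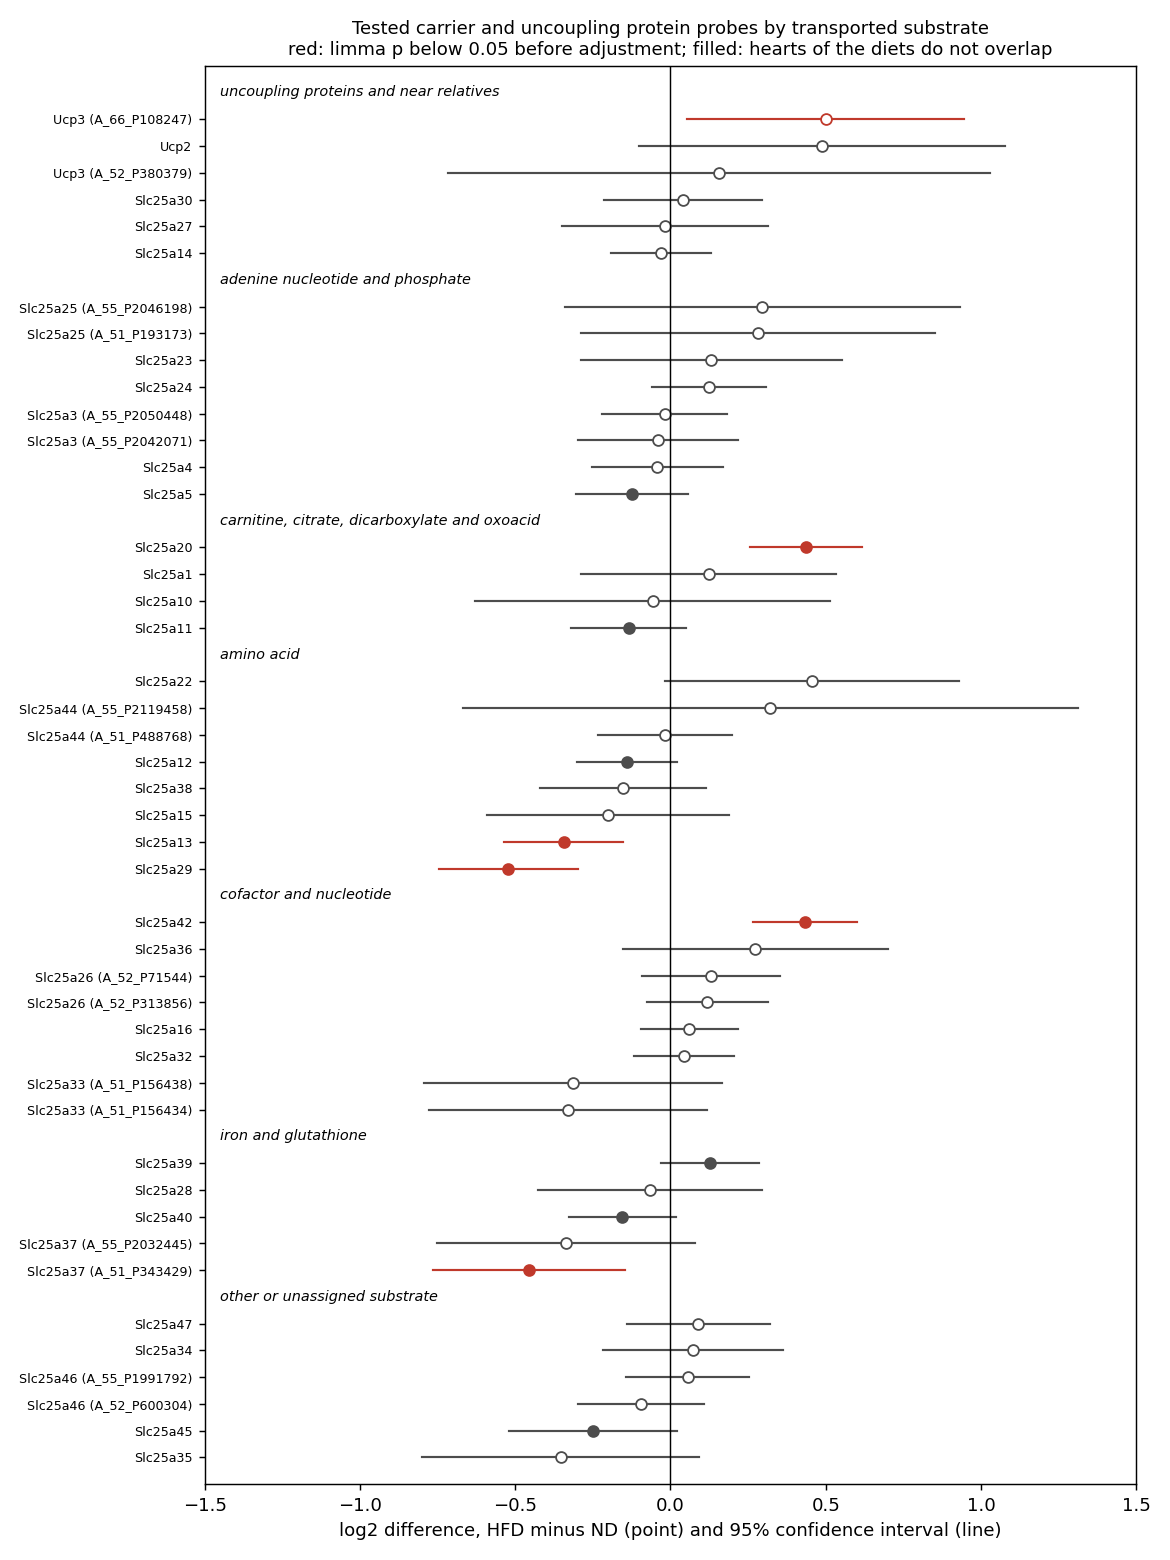
Log2 difference, HFD minus ND, of 45 tested probes with its 95% confidence interval in limma (n = 3 hearts per diet), ordered within groups of transported substrate. Red marks the 6 probes drawn that had a p below 0.05 before adjustment, filled points the 11 whose hearts did not overlap, of which 8 lie left of 0.

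Among the carriers of amino acids, 6 of 8 probes were lower in HFD, with a median of -0.15. Slc25a29 had the lowest log2 difference of the 46 probes. It read 0.77, 0.69 and 0.90 in ND and 0.37, 0.16 and 0.26 in HFD (probe at chr12:110064375-110064434, mm9), with a clear gap between the diets. The difference was -0.52 ± 0.09 (log2, SE; ND 1.44-fold over HFD), with a limma p of 0.00125 and an adjusted p of 0.157.

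Citrin and aralar, encoded by Slc25a13 and Slc25a12, do the same exchange of aspartate for glutamate. Slc25a13 read 4.73, 4.76 and 4.81 in ND and 4.52, 4.44 and 4.32 in HFD (chr6:5991482-5991541, mm9), a difference of -0.34 ± 0.08 (log2, SE) with a limma p of 0.00443 and an adjusted p of 0.239. Slc25a12 read 5.73, 5.71 and 5.74 in ND and 5.63, 5.62 and 5.52 in HFD, which is -0.14 ± 0.07 (log2, SE; limma p of 0.0774). Neither gene overlapped between the diets. The level of Slc25a13 relative to Slc25a12 within an array differed by -0.20 between HFD and ND (log2, exact permutation p of 0.1, 0.167 after adjustment over 5 such pairs of genes). Of the 6 enzymes of the malate-aspartate and glycerophosphate shuttles, Got1, the cytosolic aspartate aminotransferase, had a limma p below 0.05 and was lower (-0.23), and the median of the 6 was -0.09.

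Slc25a22, a glutamate carrier, went the other way at 0.13, 0.35 and 0.66 in ND and 0.53, 0.87 and 1.11 in HFD. Its difference of 0.46 ± 0.19 (log2, SE) was near that of Slc25a20, but the hearts of each diet were farther apart, with SDs of 0.27 and 0.29 against 0.06 and 0.07, and its limma p was 0.0567. This is the probe just outside the limit of 0.05, and the brighter Ucp3 probe is the one just inside. The p of Slc25a22 was below 0.05 in 8 of 20 alternatives, with differences from 0.32 to 0.73 over all of them. Slc25a38, the glycine carrier, and Slc25a15, the ornithine carrier, were lower by 0.15 and 0.20 with overlap. The 2 probes of Slc25a44, a carrier of branched-chain amino acids, gave -0.02 and 0.32, and the second ranged from -3.17 to -1.89 within the ND hearts alone.

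In the cofactor and nucleotide group, 6 of 9 probes were higher and 3 lower. Both probes of Slc25a33, a pyrimidine nucleotide carrier, were lower (by 0.33 and 0.32), with HFD 1 lowest and HFD 2 among the ND hearts on each. Its relative Slc25a36 was higher by 0.27 with overlap. Slc25a26, which imports S-adenosylmethionine, was higher by 0.12 and 0.13 on its probes, and Slc25a16 and Slc25a32 differed by 0.06 and 0.04.

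**Figure D3:**
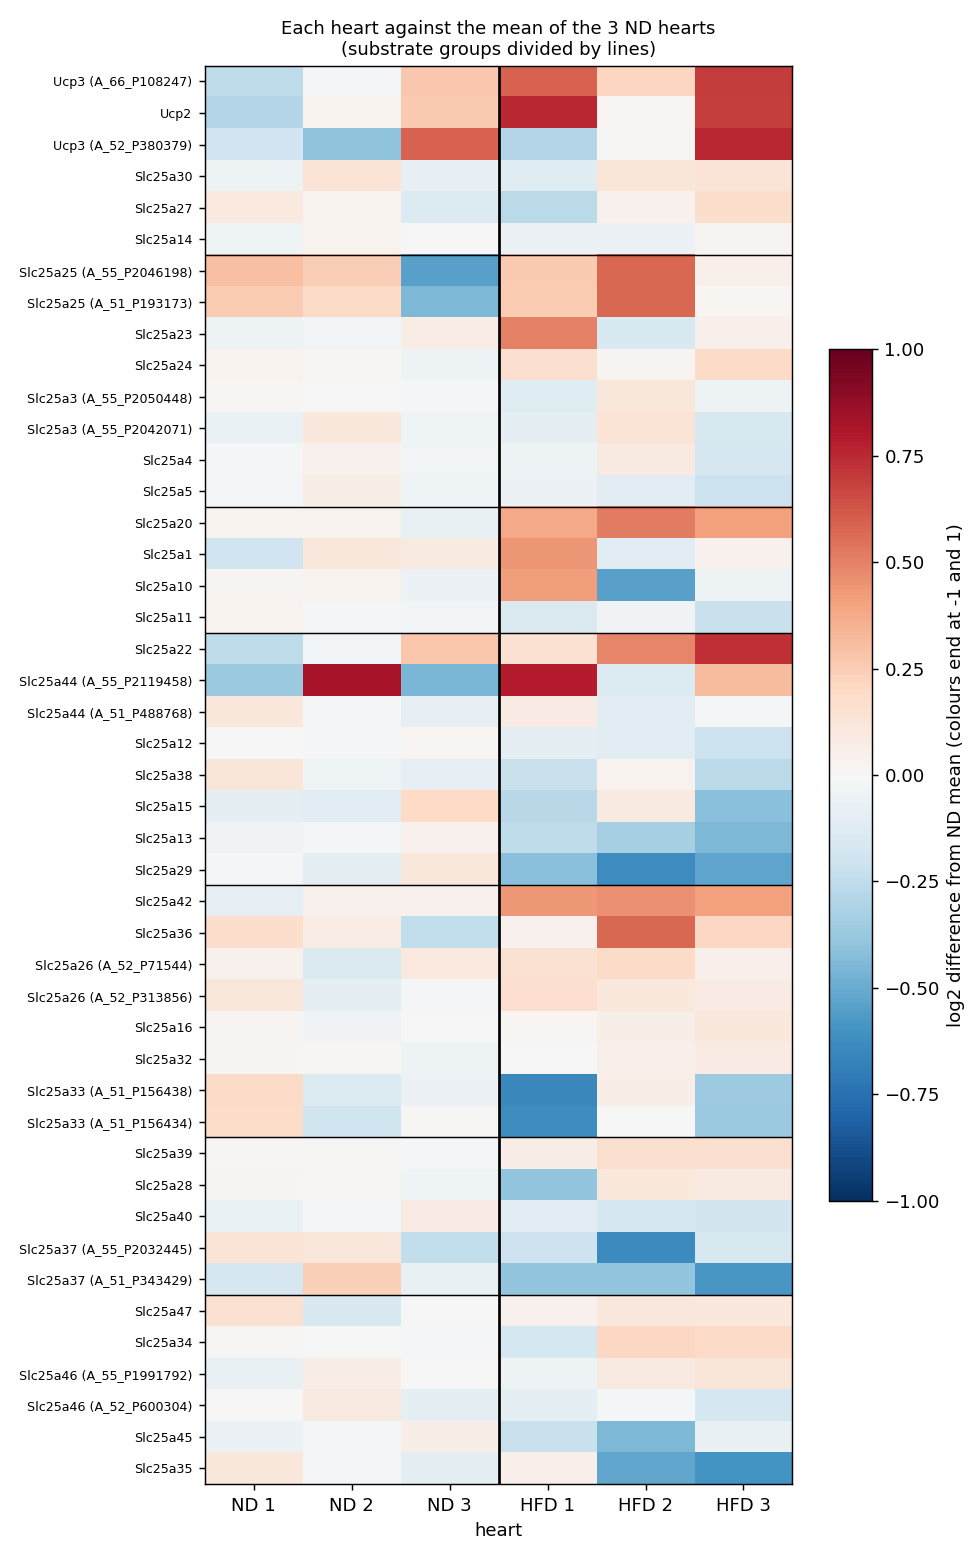
Level of each of 45 tested probes in each of the 6 hearts minus the mean of the 3 ND hearts (log2, colour from -1 in blue to 1 in red), in the same order as the plot of differences by substrate. Slc25a20 and Slc25a42 are red in all HFD hearts and Slc25a29 and Slc25a13 blue in all of them, while Ucp2 and both Slc25a33 probes have HFD 2 close to the ND hearts.

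The mitoferrins bring iron into mitochondria for heme and iron-sulfur clusters, mitoferrin 1 chiefly in developing red cells. Slc25a37 read 2.28, 2.68 and 2.37 in ND and 2.05, 2.05 and 1.87 in HFD on its brighter probe (chr14:69860020-69860079, mm9), all HFD hearts below all ND hearts. The difference was -0.46 ± 0.13 (log2, SE), with a limma p of 0.0112 and an adjusted p of 0.285. The dimmer probe, printed above, read -1.30, -1.32 and -1.68 in ND and -1.64, -2.07 and -1.59 in HFD, a difference of -0.34 with a limma p of 0.0941 and overlapping hearts. Slc25a28, mitoferrin 2, differed by -0.07 (95% confidence interval from -0.43 to 0.30), and HFD 1 was its only heart outside the range 2.78 to 2.94. The level of Slc25a37 relative to Slc25a28 within an array differed by -0.39 (exact permutation p of 0.3).

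Red cell markers stood the same way as Slc25a37. All 5 of the 9 erythroid markers that were tested were lower in HFD, 4 of them with a limma p below 0.05. Of all probes tested, 6.64% were lower with a limma p below 0.05. The list summed to 577, 737 and 580 for the ND hearts, and 514, 495 and 367 was its sum for the HFD hearts. ND 2 had the highest and HFD 3 the lowest sum, and the same hearts had the highest and the lowest level on the brighter Slc25a37 probe. On the dimmer probe ND 1 was highest and HFD 2 lowest, and HFD 3 (-1.59) lay above ND 3 (-1.68). Rhag was never above background, and Klf1 and Epb4.2 on 1 array each. Of 8 genes of mitochondrial iron use, all were lower, but 1 had a limma p below 0.05, and that was the erythroid Alas2, which makes the first step of heme synthesis in red cells (-0.64). The part of blood in the Slc25a37 level was not tested.

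Slc25a39 and Slc25a40, which import glutathione, differed in opposite directions without overlap between the diets. Slc25a39 read 1.16, 1.16 and 1.13 in ND and 1.21, 1.31 and 1.31 in HFD, 0.13 higher (limma p of 0.0974). Slc25a40 read -0.58, -0.53 and -0.43 in ND and -0.62, -0.68 and -0.70 in HFD, 0.15 lower (limma p of 0.0711). In the group with other or unassigned substrates, Slc25a45 was lower by 0.25 without overlap (limma p of 0.0654) and Slc25a35 by 0.35 with overlap (limma p of 0.0999). Slc25a34, Slc25a47 and both probes of Slc25a46 differed by 0.1 or less in size.

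The members that were not tested were too dim. Slc25a2, Slc25a21, Slc25a31, Slc25a43, Slc25a48 and the second probe of Slc25a40 were not well above background on any array, Slc25a41 was above it on 1 ND array and Slc25a18 on 1 HFD array.

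Genes that act beside the carriers were grouped in 11 lists, with 81 of 84 genes tested, 1 probe each. Of the 81, 13 had a limma p below 0.05 and were higher in HFD and 8 were lower (21 in all, 25.9%, against 11.9% of all probes tested), and 0 passed the adjustment. All 13 higher genes were in the carnitine list above and in the list of PPAR target genes, where 9 of 19 had p below 0.05 and the median was 0.26. Among them were the acyl-CoA thioesterases Acot1 and Acot2 (1.56 and 1.11), Decr1, for the oxidation of unsaturated fatty acids (0.48), Hadha of the trifunctional protein (0.44), Ech1, an enoyl-CoA isomerase (0.44), the acyl-CoA dehydrogenases Acadl and Acadvl (0.28 and 0.26), and Plin2, a lipid droplet coat protein (0.27). Fatty acid genes of this kind had been seen higher in these hearts before the list was drawn up, so the list is not independent evidence.

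The 8 lower genes were spread over 5 lists. The list of phosphotransfer enzymes and outer membrane channels held 4 of 14: the creatine kinases Ckb (-0.40) and Ckm (-0.27), hexokinase 2 (Hk2, -0.33) and adenylate kinase 3 (Ak3, -0.20). Its median was -0.16. The 4 of 14 are 28.6%, against 11.9% of all probes tested, or 6.64% when only lower ones are counted. The hearts of the diets did not overlap for 8 of the 14, all lower (57.1%, against 19.0% of all probes tested). Besides Got1 and Alas2, the others were Ccdc90a, a regulator of the calcium uniporter (-0.35; 1 of 8 in its list), and Sfxn4, a sideroflexin (-0.19; 1 of 5). The 2 subunits of the pyruvate carrier, under the older names Brp44 and Brp44l, were lower by 0.14 and 0.18 with p above 0.05, and 0 of 5 genes of citrate supply and use, 0 of 4 mitochondrial ABC transporters and 0 of 3 relatives of the family under other symbols had a limma p below 0.05.

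**Figure D4:**
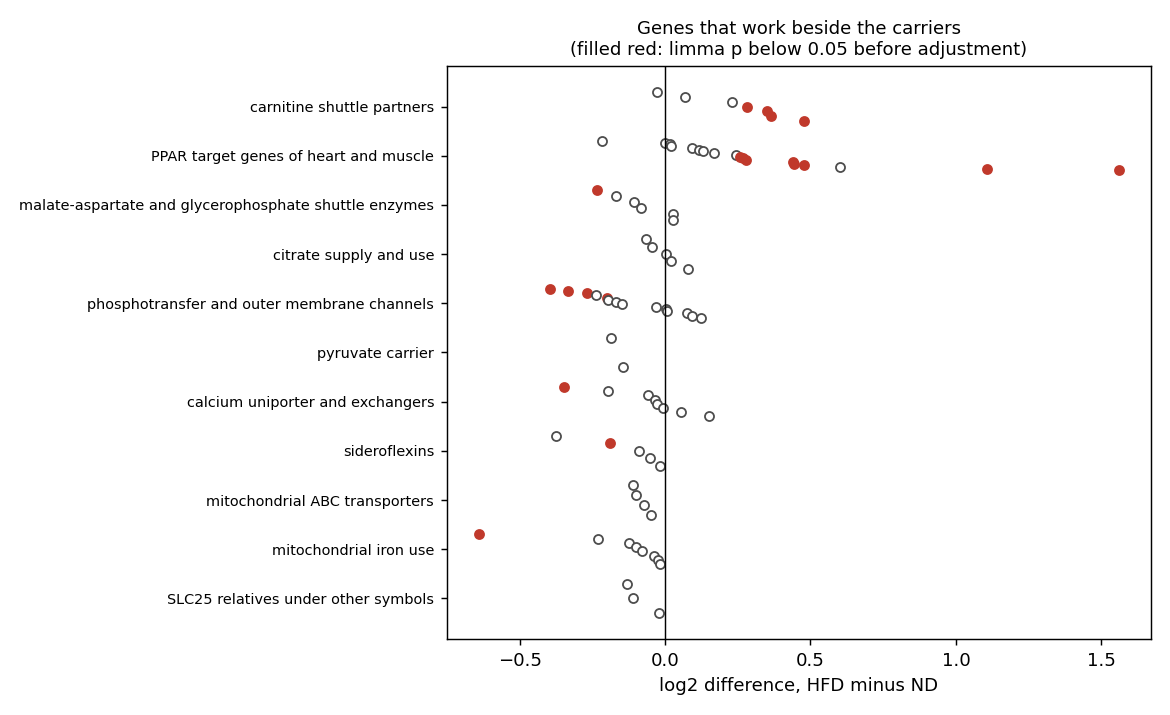
Log2 difference, HFD minus ND, of 80 tested genes of the 11 lists, 1 point per gene, spread vertically within a list only to keep points apart. The 12 filled red points right of 0 lie in the carnitine shuttle and PPAR target lists, and the 8 left of 0 in 5 other lists.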

How the data were processed

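The authors labelled heart RNA with Cy3 and read 6 arrays, and per the file headers Agilent Feature Extraction 10.7.1.1 subtracted background and spatial trend within an array. The deposited intensity values on a linear scale were not normalized between arrays. Spot and local background intensity served for an alternative (normexp, offset 50). Log2 values of the same arrays, deposited by the authors as well, were an alternative; how they were made is not given in the sources used here. Each column ranked probes as its own array did (Spearman's rho of 1), with a median of 4.56.

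Control spots and 127 to 190 outlier spots per array were left out, spots of a probe averaged, and log2 intensity taken relative to the array's 75th percentile (453 to 544). Probes well above background on all arrays of a diet were compared, HFD minus ND, in limma 3.58.1 (lmFit, eBayes, two-sided; R 4.3.3, jsonlite 2.0.0, statmod 1.5.0) with Benjamini-Hochberg adjustment over 27587 probes. The limit of 0.05 before adjustment is that of the study's methods. A gene of the 11 lists was represented by its probe with the highest mean level. Figures used matplotlib. The code was tested on simulated data. The number of arrays limits the precision, and no label says more of the hearts than that they are separate samples, so p-values measure the spread between these samples.

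The members, lists, tests and pairs of genes were chosen with earlier results of these data known. Named are member probes with p below 0.05, representative probes of 15 genes whatever their result, listed genes with p below 0.05, and Ucp1. Other members are named because they were few. The separate results of 1 member and 2 other genes are not reported here. Genes keep the names of the array; 53 of 54 member probes matched RefSeq by accession, all 53 with the same symbol. Replicate numbers were not treated as pairs, since deviations from the diet means correlated at -0.154, 0.147 and 0.19 between same-numbered hearts. Scaling alternatives were quantile normalization, normexp and the deposited log2 values. Alternatives of the probe set were no filter on dim probes, a filter on all 6 arrays, averages of a gene's probes, and outlier spots kept. Alternatives of the fit were the methods' t-test, array weights, a variance trend over intensity with robust estimates, a replicate block, and the slide row, as a term or with row 2 alone. Each heart was left out in turn, and the atrial level as a covariate was chosen after seeing the data.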

Additional observations from a re-analysis of the deposited data

Results flagged for a closer look

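Of the members and the genes of the 11 lists, 10 had no probe in the comparison, and 3 of these 10 had a signal well above background on an HFD array and on no ND array. Genes outside these lists were not searched, and only this direction was searched. Among the members, Slc25a41 stood the other way, well above background on 1 ND array and on no HFD array. Ucp1 was at -0.53 (log2 relative to the 75th percentile) in HFD 1 and between -6.77 and -7.17 in the other 5 hearts. Fgf21, a hormone gene that PPAR receptors induce, was at -3.64 in HFD 2 and -3.60 in HFD 3, well above background in both, at -5.64 in HFD 1 and between -6.77 and -7.02 in the ND hearts. Slc25a18, a glutamate carrier, was at -4.03 in HFD 1, the only array on which it was well above background, and between -7.19 and -4.66 in the others. Fgf21 is the only one of these with a signal in more than 1 heart. No difference was tested for these 3 genes.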

How the results depend on the processing

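Slc25a42, Slc25a20, Slc25a29 and Slc25a13 kept their direction and a p below 0.05 in all 20 alternatives (limma, or the methods' t-test in 1). The brighter Slc25a37 probe did so in 19 and the brighter Ucp3 probe in 14 of 20, each with its direction kept. For these genes 1 of the 20 is the average of both probes. It gave -0.40 for Slc25a37 (limma p of 0.0116) and 0.33 for Ucp3 (limma p of 0.231). Ucp3 had a p above 0.05 without ND 1, ND 2, HFD 1 or HFD 3 (p from 0.0758 to 0.104, differences from 0.37 to 0.49). The count of members passing adjustment was 1 with an intensity trend and robust variances (Slc25a42) and 0 otherwise, also for each heart left out (0 to 0). The count with p below 0.05 was 12 with the atrial level as a covariate (15.1% of all probes) and 5 to 11 without 1 heart (7.86% to 12.6% of all probes), the 11 being without HFD 2. With the replicate block it was 9 (10.9% of all probes), and 0 passed adjustment; the deviations do not pair the hearts. Slide row as a term gave 8 (7.74% of all probes). Without overlap were 33 on row 2 alone, where HFD is 1 heart and 58.7% of all probes did not overlap, and 14 to 22 without 1 heart (20 without HFD 1 and 22 without HFD 2, where 31.4% and 33.2% of all probes did not). Quantile normalization and the deposited log2 values each gave 10 of 46 without overlap (3 higher and 7 lower), against 20.2% of all probes. The median difference ran from -0.03 to 0.02 without 1 heart. The count over the gene lists ran from 12 to 24 without 1 heart, and up to 29 with array weights (14.1% of all probes). The 12 was without ND 2 (11 higher and 1 lower, 8.27% of all probes) and the 24 without HFD 2 (12.6% of all probes). Near 0, signs turned: Slc25a3 was 0.00 with quantile normalization and -0.13 to 0.020 without 1 heart, Slc25a4 0.011 in the deposited log2 values and -0.11 to 0.021, Slc25a28 0.089 with slide row as a term and on row 2 alone and -0.15 to 0.099, Slc25a10 0.021 with the atrial covariate and -0.29 to 0.18, Slc25a1 -0.036 to 0.24 and the dimmer Ucp3 probe -0.14 to 0.45. The cause was not tested. The dim members (8 probes) are limited by signal over background.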
